A study of Caenorhabditis elegans with 2 samples.

Results

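Of the 2520 nuclear regions bound by the chromatin protein FLT-1 in embryos of the nematode Caenorhabditis elegans, 211 had their summit in an exon and away from promoters and small RNA genes. These exonic regions were 8.37% of the nuclear regions (95% Wilson interval 7.35 to 9.52). In the own list of replicate 1 the share was 60 of 1485 (4.04%), and in that of replicate 2 it was 31 of 1106 (2.80%). Of the 211 regions, 161 lay in coding sequence, 24 in a 5' UTR and 26 in a 3' UTR. A region is a set of overlapping peaks, and the summit of the peak with the highest signal gives its position. It was counted as exonic when the summit fell in a coding exon or UTR of a protein-coding gene, outside the span from 1000 bp upstream to 200 bp downstream of every protein-coding gene start, and over 200 bp from any tRNA, snoRNA, snRNA or miRNA gene. The worms were of strain RW12255, whose flt-1 gene carries TY1, EGFP and FLAG tags per the label. An anti-GFP antibody recovered the fusion protein from whole mid-embryos with an age label of 1 hour, obtained by egg bleaching, and the sheared chromatin measured 200 to 800 bp. There were 2 biological replicates of this 1 strain and no second condition. The gene is annotated as baz-2 on chromosome III, from 7650553 to 7656032 on the minus strand, whereas the strain's label names chromosome I, and no region overlapped the gene. Peak lists hold no expression values, so neither the stage nor the tissue label could be checked against marker genes.

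FLT-1 belongs to the BAZ2 family of bromodomain proteins. Bromodomains bind acetylated lysines of histones, PHD fingers bind histone tails, and in mammals BAZ2 proteins work with ISWI-type remodelling ATPases that slide nucleosomes. Chromatin proteins of this kind are usually mapped at promoters and enhancers. Exons differ from those elements in composition, because they must encode protein and are richer in G and C than the introns and spacers of the worm genome.

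Stretches of 30 bases around the summit are printed for 11 coding regions, because the exonic regions differed in base composition from other exonic sequence. Each run reads 5' to 3' along the host gene's mRNA strand, the summit is base 16, and capitals mark G and C. The sequences are from the RefSeq copy of the WBcel235 assembly, which equals ce11. The first 6 are the strongest coding regions on II, III, IV, V and X whose windows hold no repeated sequence. By the GC content of the 201 bp window, the next 2 are cuticle collagens among the most GC-rich, and the last 3 are the least GC-rich.
dos-3: atCaCCCGGaatCCGtGaaCGtGGattGGC
pals-26: CaGaGCattGaGGatGGaGaaatGGaaGtG
pks-1: taaCCttatCCaaGaGaCtCatCtCGtGtC
Y43F8B.2: ttCGCCCCGtCCtCCaCCaCGtCCCCaCCG
ugt-50: tattCGaaaCtaCtGGaCaaCtatGaCGGt
cdc-25.2: tGaGCatGaGCCGCtCCttCaaGtCCttGC
col-105: GGGCatGGaCGGGGaGCCCGGGCCGCCaGG
col-103: CCCCaGGaCaGCCaGGaCCaGaCGGaCaGC
WBGene00022661: tGaattaCCCGGaCtCGtCtCGtCttGCaC
grd-7: ttCCaCatCaGatGatatCCaCGaataCaa
Y102A11A.9: tGGCaaaaGaaaaCttGattGaCattCaaG
The 6 strongest lie at chrIII:835946-835975 (minus strand), chrIII:4378765-4378794 (plus), chrX:5429528-5429557 (plus), chrV:19522684-19522713 (minus), chrX:12692200-12692229 (plus) and chrV:1584648-1584677 (plus), in the order printed. The collagen stretches lie on the minus strand at chrIV:1358242-1358271 and chrIV:762662-762691. The stretches from the 3 least GC-rich windows lie at chrIII:7738545-7738574 (minus), chrX:7267996-7268025 (minus) and chrX:2014811-2014840 (plus). The 30 bases printed for WBGene00022661 are 53.3% G and C, so only its wider window is GC-poor. Over the wider window of 201 bp, GC content was 71.1% in col-105 and 64.7% in col-103, against 31.3% in WBGene00022661 and grd-7.

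Exonic sequence outside promoters was bound sparsely for its size, and the 3 kinds of exon differed. Coding sequence under the rule makes up 19.97% of the nuclear genome and held 6.39% of the regions (5.50 to 7.41). 3' UTRs make up 2.35% and held 1.03% (0.705 to 1.51). 5' UTRs outside promoters make up only 0.556% and held 0.952% (0.641 to 1.41), so this was the single exonic class whose share of regions exceeded its share of the genome. The promoter span here is that of the outermost start of each gene. Of the 24 regions, 17 lay in the same span of an internal transcript start, as did 49.6% of eligible 5' UTR bases. Whether the excess holds away from such starts was not tested. Per megabase of eligible sequence there were 43.0 regions in 5' UTRs, 11.0 in 3' UTRs and 8.04 in coding exons, against 25.1 nuclear regions per megabase of the whole genome. That reference includes promoters and small RNA genes, which the rule takes out of the exonic class, so the contrast is set in part by the rule. Under the same exclusions there were 211 exonic regions in 22940620 bases, 467 intronic in 30421953 and 493 intergenic in 24896229. A further 113 summits lay in exons but inside a promoter span, and 5 lay in exons within the margin of a small RNA gene. These are not members.

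By chromosome, the density of exonic regions was highest on chromosome I, with 49 regions or 13.4 per megabase of eligible exonic sequence (95% Poisson interval 9.91 to 17.7). It was 9.98 on III (6.87 to 14.0), 9.91 on X (6.98 to 13.7), 7.76 on V (5.49 to 10.6), 7.40 on IV (4.88 to 10.8) and 7.31 on II (4.82 to 10.6). These intervals cover the counting of regions only, and that of chromosome I overlaps those of the other 5 chromosomes. All nuclear regions together were densest on III, at 32.2 per megabase, with 29.9 on I and 29.5 on X.

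Exonic regions were the weakest class in the list. Signal here means the number that the peak caller of the authors attached to a peak, read for the pooled replicates and for each replicate alone. The median pooled signal was 79.6 for exonic regions, with quartiles of 72.4 and 88.7 and a range from 39.6 to 313. It was 87.4 for intronic, 90.1 for intergenic, 104 for promoter and 195 for small RNA gene regions. Medians of the exonic kinds were close, at 79.2 in coding exons, 84.0 in 5' UTRs and 78.4 in 3' UTRs.

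The ratio of the exonic median to that of all other nuclear regions was 0.783 in the pooled signal, 0.785 in replicate 1 and 0.784 in replicate 2. Against intronic regions alone it was 0.918 in replicate 1 and 0.902 in replicate 2, and against intergenic regions 0.893 and 0.857. The lower level of exonic regions was therefore seen in both replicates and against each class, and it was small next to introns.

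**Figure D1:**
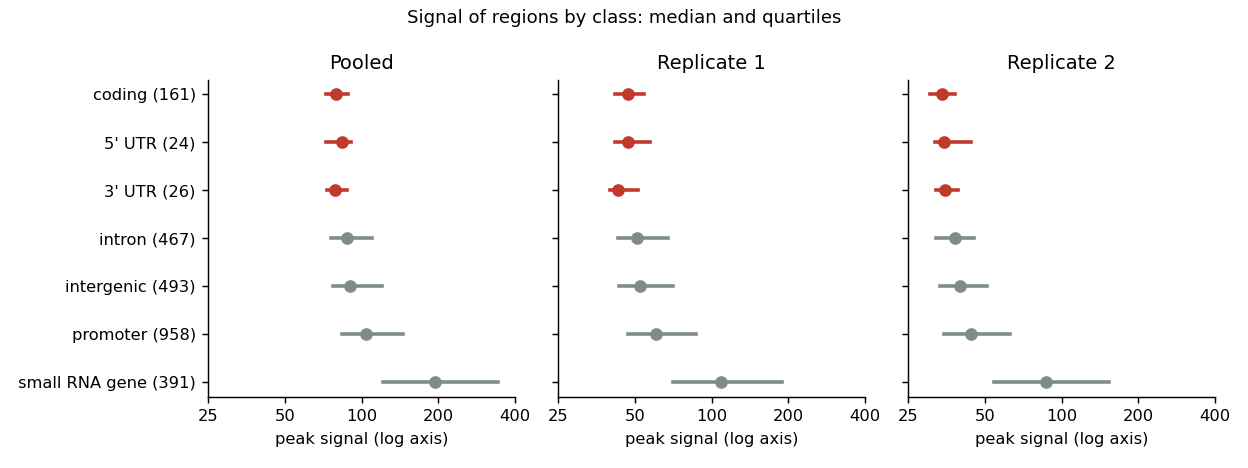
Median (point) and quartiles (line) of peak signal on a log axis, pooled and in each replicate, for 3 exonic classes (red) and 4 other classes (gray), with the number of regions in brackets. The exonic medians lie between 78.4 and 84.0 in the pooled signal, left of every other class.

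Ordering the 2520 regions by pooled signal and dividing them into 10 equal bins of 252 showed where exonic regions sit. The strongest bin held 3 exonic regions, 1.19% (0.406 to 3.44), and the second held 1. The next bins, in order of falling signal, held 5, 3, 20, 20, 33, 36, 43 and 47. The weakest bin was thus 18.7% exonic (14.3 to 23.9). The 3 regions of the first bin were in dos-3, pals-26 and pks-1, and they were also the only 3 of the 211 with a global IDR of at most 0.0001. The IDR (irreproducible discovery rate) is the authors' measure of agreement between replicates, and 15.0% of all nuclear regions reached that level. The median -log10 IDR of the exonic regions was 2.32, against 2.57 in introns, 2.64 between genes, 2.92 at promoters and 4.01 at small RNA genes, where the threshold of the list was 2.00.

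**Figure D2:**
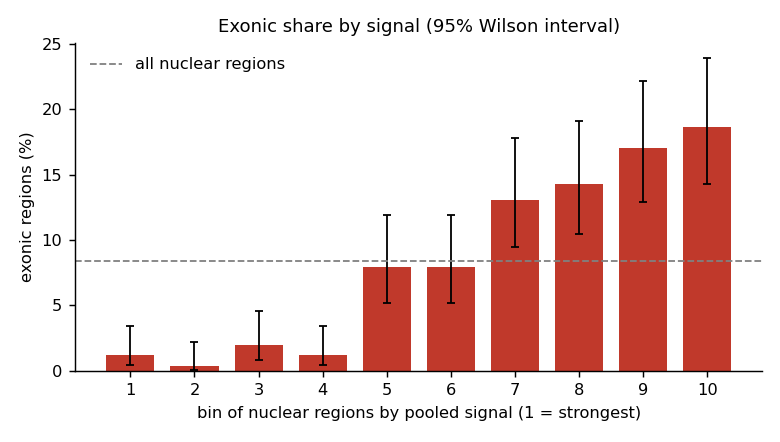
Share of exonic regions in 10 equal bins of the 2520 nuclear regions ordered by pooled signal, with 95% Wilson intervals, and the share over all regions (dashed). The first 4 bins lie below 2% and the last bin reaches 18.7%.

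Most exonic regions were in neither replicate's own thresholded list. These own lists did not enter the choice of members. Overlap with both own lists was found for 9 of the 211 exonic regions, 4.27% (2.26 to 7.91), where 33.1% of all nuclear regions have it. The shares were 15.8% (12.8 to 19.4) in introns, 23.3% (19.8 to 27.3) between genes, 35.8% at promoters and 74.7% at small RNA genes. In coding exons 7 of 161 had it, in 5' UTRs 2 of 24, and in 3' UTRs 0 of 26, which allows up to 12.9% by the Wilson interval. The own list of replicate 1 held 36 exonic regions (17.1%, against 51.0% of all regions) and that of replicate 2 held 18 (8.53%, against 39.7%), each count including the 9 in both. Neither own list held 166 of them, 78.7% (72.7 to 83.7), where 42.3% of all nuclear regions were in neither. The other thresholded list over both replicates held 142, or 67.3%, against 83.6% of all regions.

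Class and signal level move together, so the same share was read at like signal. Below a pooled signal of 75, 0 of 65 exonic and 2 of 342 other regions were in both own lists. Between 75 and 90, 1 of 97 exonic and 8 of 546 other regions were (1.03% and 1.47%). Between 90 and 110 the counts were 2 of 35 and 45 of 401 (5.71%, 1.58 to 18.6, and 11.2%, 8.49 to 14.7). At 110 or above they were 6 of 14 and 769 of 1020 (42.9%, 21.4 to 67.4, and 75.4%, 72.7 to 77.9). Intronic regions of that highest level had 50.9% (41.9 to 59.8), whose interval overlaps the exonic one. At or above 110, other regions reach much higher signals than exonic ones, so levels within that bin are not matched. In the own list of replicate 1 alone, exonic and other regions had 4.62% and 3.51% below 75, and 5.15% and 16.1% from 75 to 90. From 90 to 110 they had 51.4% and 49.1%, and at 110 or above 71.4% and 93.3%.

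The replicates ordered the exonic regions differently. A peak of the replicate's own ranked list overlapped the leading peak for all 211 regions in replicate 1 and for 205 in replicate 2. The median distance of its summit from the pooled summit was 11 bp in replicate 1 and 26 bp in replicate 2. This distance was over 100 bp at 8 members in replicate 1 and at 20 in replicate 2, where the 2 values may belong to different summits. Among those named below, it was 152 bp at ZK131.11, 143 bp at pck-2 and 125 bp at pde-4, each in replicate 2. The signal of replicate 1 was the higher one at 179 of 205 exonic regions (87.3%), close to the 85.1% over all nuclear regions. Across the 205 regions, which share their 2 libraries, the log2 signals of the replicates correlated with a Pearson r of 0.43 and a Spearman rho of -0.03. Over 2465 nuclear regions the values were 0.85 and 0.63. The list was thresholded on agreement between the replicates, and the effect of that threshold on these values was not tested.

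**Figure D3:**
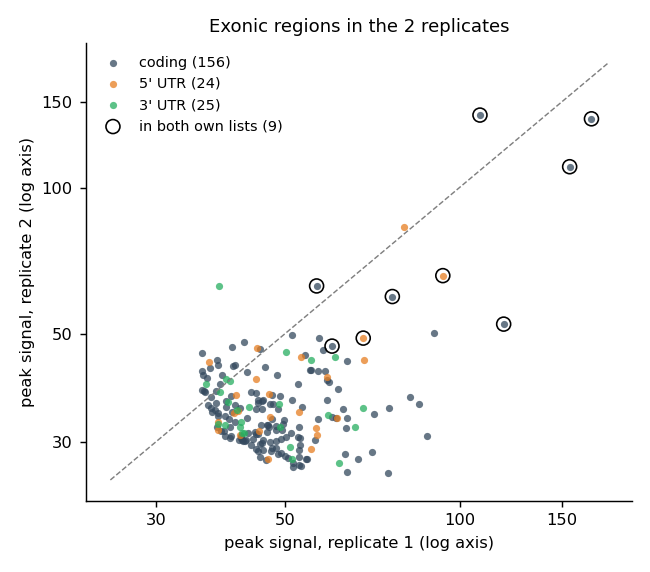
Peak signal of 205 exonic regions in replicate 1 and replicate 2, both on log axes, coloured by exon class, with the 9 regions found in both own lists circled and the line of equal signal dashed. Most points form a cloud below the line with no common order, and dos-3, pals-26 and pks-1 lie apart at the upper right.

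The 3 strongest exonic regions were in coding exons of dos-3, pals-26 and pks-1. The dos-3 region, at chrIII:835853-836071, had a signal of 169 in replicate 1, 138 in replicate 2 and 313 pooled. It lies in the last of 11 exons, 209 bp before the gene's end. The gene encodes a secreted protein with the DOS motif found in co-ligands of Notch receptors. The pals-26 region, at chrIII:4378703-4379026, had 155 and 110, with 269 pooled, and also lies in the last exon (5 of 5). The pals genes are a large nematode family linked to the response to intracellular pathogens. The pks-1 region, at chrX:5429469-5429542, had 108 in replicate 1 and 141 in replicate 2, with 249 pooled, in exon 22 of 30 of a polyketide synthase gene. All 3 overlapped both own lists, and all 3 had a leading peak of unusual width (219, 324 and 74 bp), where 207 of the 211 leading peaks were 296 bp wide. The pks-1 region was absent from the other thresholded list over both replicates, which held the dos-3 and pals-26 regions. Its summit, at 5429543, falls just past the end of the region.

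Of the remaining members among the 20 with the highest mean log2 signal, Y43F8B.2 and egl-30 came next in pooled signal. Y43F8B.2 had 119 in replicate 1 and 52.3 in replicate 2, so its mean of 85.7 has an SD of 47.2 (n = 2). The 5' UTR region of egl-30, the gene of a Gq alpha subunit, had 93.6 and 65.9. ugt-50, for a UDP-glucuronosyltransferase, had 76.6 and 59.6. cdc-25.2, for a phosphatase that activates cyclin-dependent kinases, had 90.3 and 50.1. These 4 were higher in replicate 1, as were 17 of the 20.

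Lower in the 20, algn-12, whose name marks it as a gene of asparagine-linked glycosylation, had 56.7 in replicate 1 and 62.7 in replicate 2. Its replicate 1 value is that of a peak whose summit lies 274 bp from the pooled one. F54F2.7 had 60.3 and 47.2, and both genes were in both own lists. The replicates were far apart at mnk-1, a MAP kinase-interacting kinase gene, with 88.0 and 30.8, at ZK131.11 with 85.0 and 35.8, at lelo-2 with 82.2 and 37.0 and at K01A2.4 with 75.6 and 35.2. They were closer at zip-2, for a bZIP transcription factor of the infection response, with 57.2 and 49.0, and at grl-7, a ground-like gene, with 58.2 and 46.2. rde-12, for a DEAD-box helicase of the RNAi pathway, had 64.0 and 43.9. The zip-2 and dos-3 summits are neighbours, 1387 bp apart on chromosome III. Of the 20, 15 were coding, 4 in 5' UTRs and 1 in a 3' UTR, and 8 lay in the last exon of their transcript. Over all members the last exon held 40 of 161 coding, 0 of 24 5' UTR and 25 of 26 3' UTR summits.

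Ordered by the mean of the log2 signals of the replicates, the leading 5' UTR regions were in pck-2, egl-30 (described above), pde-4 and M01D7.9. pck-2, for phosphoenolpyruvate carboxykinase, had 80.2 in replicate 1 and 82.9 in replicate 2. Every 31-mer of its window occurs elsewhere in the genome, so reads there could come from another copy. pde-4, a cAMP phosphodiesterase gene, had 68.2 and 49.0 and was in both own lists. M01D7.9 had 68.3 and 44.2, and 57.3% of its 31-mers are repeated.

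By the same order gdi-1 led the 3' UTR regions, although mef-2 (103) and mdt-15 (102) were above it (96.6) in pooled signal. gdi-1, for a Rab GDP dissociation inhibitor, had 61.1 and 44.8. F58H1.7 followed with 55.5 and 44.1, and W04A8.2 had 38.4 and 62.8, one of 26 members higher in replicate 2. mef-2, for a MADS-box transcription factor, had 68.0 and 35.2. None of these 4 was in both own lists, nor was any of the 26 3' UTR regions, against 4.27% of all exonic regions.

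Repeated sequence was less frequent here than in the list as a whole. A 31-mer that occurs elsewhere in the genome was present in the windows of 16 exonic regions, 7.58% (4.72 to 11.96), and in 30.3% of all nuclear windows. The rule kept members away from small RNA genes, where 78.0% of windows have one, so this contrast is set in part by the choice of members. The share was 31.3% in introns, 34.3% between genes and 13.3% at promoters (11.3 to 15.6), an interval that overlaps the exonic one. Among the 20 strongest it was present in 4, namely pck-2, M01D7.9, F54F2.7 and K01A2.4.

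Internal transcript starts were frequent under the 5' UTR summits. The rule used 1 start per gene, the outermost, and many worm genes have transcripts that begin further in. A protein-coding transcript start had the summit within its span of 1000 bp upstream to 200 bp downstream in 17 of 24 5' UTR regions (70.8%, 50.8 to 85.1), where 49.6% of eligible 5' UTR bases do. For coding regions the count was 14 of 161 (8.70%, 5.25 to 14.1) against 5.40% of bases. For 3' UTR regions it was 0 of 26 against 1.05% of bases. Of the 20 strongest exonic regions, 6 had such a start: pck-2, Y43F8B.2, egl-30, ugt-50, pde-4 and lelo-2. At pde-4 the summit was on the start itself, at Y43F8B.2 33 bp and at ugt-50 93 bp upstream of one, and at egl-30 119 bp downstream.

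The median pooled signal of the 31 members with an internal start was 80.3, against 79.3 for the other 180. In both own lists were 4 of those 31 (12.9%, 5.13 to 28.9) and 5 of the 180 (2.78%, 1.19 to 6.34), intervals that overlap.

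GC content set the exonic regions apart from the exonic sequence they were drawn from. In windows of 201 bp around the summit, the median was 48.3% (quartiles 42.3 and 53.2), with a range from 31.3 to 71.1. Windows at every eligible exonic base had a median of 38.8% (34.8 to 43.3), and so did windows at 97184 coding exon midpoints. The members exceeded the median of the bases in 186 of 211 cases (88.2%). A GC content of at least 55% was reached by 41 members (19.4%) and by 1.35% of the bases, and less than 35% was found in 9 members (4.27%) and 25.7% of the bases.

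The difference was seen in each kind of exon. Coding regions had a median of 49.3% against 39.8% of coding bases, 5' UTR regions 48.0% against 36.3%, and 3' UTR regions 41.3% against 32.3%. It was not particular to exons, because intronic regions had 47.3% against 33.3% of intronic bases and intergenic regions 46.8% against 33.3%.

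In windows of 51 bp, mean GC content fell away on both sides of the summit, from 50.8% ± 9.63 (SD over 211 regions) at the summit to 44.2% at 100 bp upstream and 44.7% at 100 bp downstream along the gene. At 300 bp it was 37.7% upstream and 37.2% downstream, near the level of all exonic bases. Within coding members the excess was alike at all 3 codon positions. The first position had 59.2% G and C against 50.2% in all eligible coding sequence, the second 48.3% against 39.1%, and the third 48.7% against 39.4%. The differences were 8.96, 9.19 and 9.25 percentage points.

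GC content and signal were weakly related among the members. Over the 211 regions, GC content and log2 pooled signal had a Pearson r of 0.04 and a Spearman rho of 0.10, given as a description. The median pooled signal was 86.9 in the 41 members with at least 55% GC and 77.9 in the 9 members under 35%. Whether the share of G and C affects the recovery or calling of fragments was not tested, since no input profile was analysed here.

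**Figure D4:**
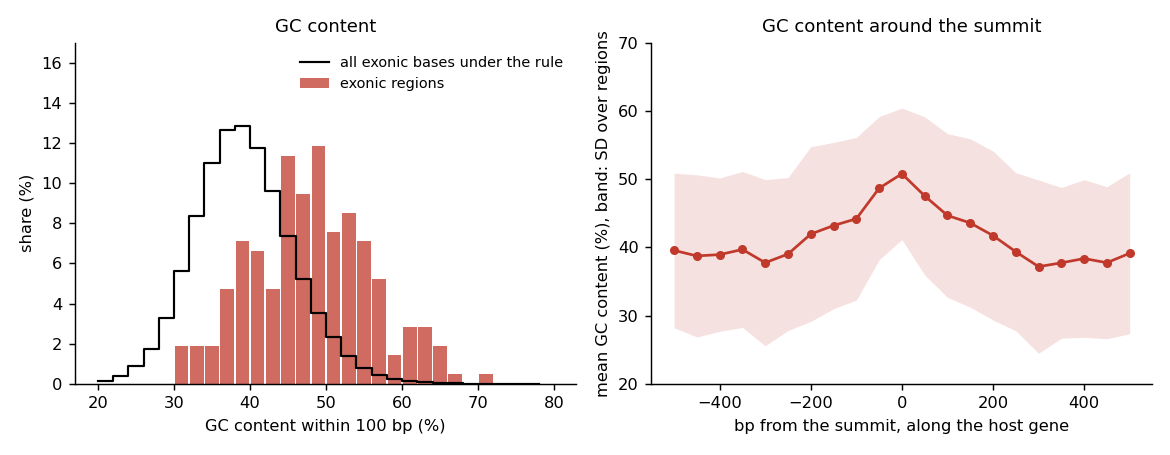
Left, GC content within 100 bp of 211 exonic summits (bars, share of regions) and of all exonic bases under the same rule (line, share of bases). Right, mean GC content in 51 bp windows by distance from the summit, with a band of 1 SD over regions, where the mean peaks at 50.8% at the summit.

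Motif shares in the exonic windows are given beside those of all nuclear regions, of the 1918 non-exonic regions away from small RNA genes (a reference added after the shares were seen), and of windows tiled over eligible exons. The rule kept members away from small RNA genes, and tRNA gene promoters hold A and B boxes, so a difference from all regions is set in part by the choice of members. Each motif was searched on both strands of the 201 bp window. The A box TGGCNNAGT was in 6 of 211 windows (2.84%), against 5.63% of all nuclear regions, 4.74% of the regions away from small RNA genes and 1.76% of exonic windows. The B box GTTCNANNC was in 16 (7.58%), against 17.5%, 6.62% and 8.76% in the same order. GAGAGA was in 42 (19.9%), against 32.3%, 34.8% and 10.6%. The E-box CACGTG was in 16 (7.58%), against 4.01%, 4.07% and 4.52%, and a run of 8 T or 8 A in 16 (7.58%), against 9.88%, 9.70% and 10.9%. GGAGGA, chosen after its frequency in these windows was seen, was in 48 (22.7%), against 13.9%, 13.8% and 10.8%. These shares have no intervals, and several rest on few windows. The windows were not matched for GC content, with a median of 48.3% in members and 38.8% at eligible exonic bases. Its effect on the motif shares was not tested. A match is a run of letters, not proof of a bound site.

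Summits lay in long exons of long genes. The exon under the summit had a median length of 531 bp, against 318 bp for eligible exonic bases, so that the members exceed even a measure that counts long exons by their length. The host gene had a median length of 5448 bp over members and 3848 bp over eligible bases. Of the 211 members, 110 (52.1%) lay in genes over 5000 bp, which hold 39.0% of the eligible bases. Distance from the nearest promoter span ran from 7 to 29472 bp with a median of 1495, and 78 members (37.0%) were within 1000 bp of one, where 43.6% of bases are. The exonic regions were therefore not crowded against promoter edges.

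Along the gene the median position was 65.9% of the way from start to end, with 59.5% for eligible bases. The final 20% of the gene held 75 members (35.5%) and 27.5% of bases, and the excess was in the span from 80 to 90%, with 40 members (19.0%) against 11.9% of bases. 3' UTR summits lay a median of 310 bp before the gene's end. Of the 161 coding summits, 11 were in the first and 40 in the last exon of their transcript. The share of eligible coding bases in first and last exons was not counted. The rule also takes out the first 200 bp of every gene, which lowers the count in first exons.

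**Figure D5:**
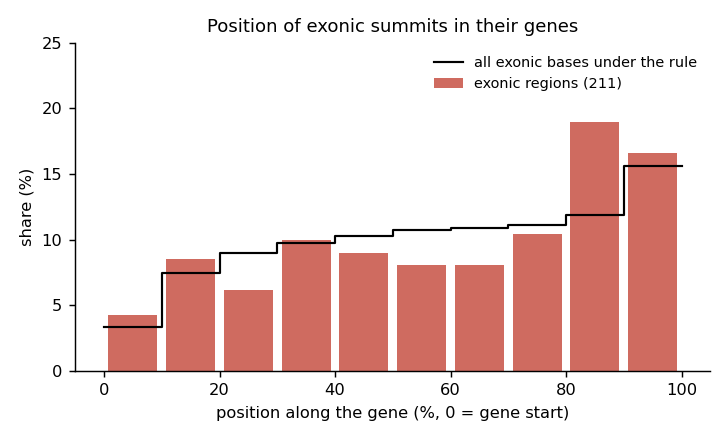
Position of the 211 exonic summits along their genes in 10 bins (bars) and that of all eligible exonic bases (line), where 0 is the gene start. The span from 80 to 90% stands highest with 19.0% of the summits against 11.9% of bases.

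Regions were mostly exonic through their length. Exons covered a median of 96.6% of a member (lowest 31.6%), 197 members were at least 50% exonic, and 11 reached into a promoter span. Only 1 summit fell in exons of more than 1 protein-coding gene. Another annotated gene covered 4 summits, an ncRNA gene in W06H8.6, R08C7.12 and ret-1 and a pseudogene in WBGene00020828. Reads of such overlapping genes cannot be told apart.

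The members nearest to the limit of the promoter span were in ttr-50, mrps-30 and F42A6.6, 7, 11 and 24 bp outside it, with pooled signals of 97.5, 83.1 and 55.4. Just inside it, and so not members, were summits in Y56A3A.22, C16H3.3 and Y17G7B.21, by 3, 5 and 8 bp, with 82.3, 61.3 and 94.0. No member lay closer than 393 bp to a small RNA gene.

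The 211 regions lay in 196 genes, or 0.981% of the 19973 nuclear protein-coding genes. Of these host genes, 39 (19.9%, 14.9 to 26.0) also had a region in their own promoter, as 6.81% of all protein-coding genes do. The promoter region was the stronger one for 37 of the 42 exonic regions in such genes, with a median of 120 against 78.0. The strongest region in the promoter span was taken, including any near a small RNA gene. Promoter regions as a class also had the higher median, 104 against 79.6. An intronic region was present in 31 host genes (15.8%, 11.4 to 21.6). The share over all protein-coding genes was not counted, so this is not a trait of the host genes. Host genes are long, which bears on both counts, and length was not matched. Another region lay within 2000 bp of 65 members (30.8%, 24.97 to 37.3), against 23.2% of all regions.

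Several exonic regions in 1 gene were found 13 times. dpy-21, for a histone H4 lysine 20 demethylase of X-chromosome dosage compensation, had 3 regions in 1 exon of 3412 bp, within 1936 bp. Their signals were 44.9, 48.3 and 48.3 in replicate 1 and 36.5, 29.1 and 32.2 in replicate 2. They were nearly equal in the pooled signal, from 78.4 to 79.9. ztf-6, a zinc finger gene, had 2 coding regions (66.8 and 27.6, and 49.6 and 32.6) and a 3' UTR region (38.3 and 32.6). fasn-1, for fatty acid synthase, had 3 regions spread over 7391 bp, with pooled signals from 65.0 to 78.9.

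cbp-1, for the CBP/p300 histone acetyltransferase, had 2 regions in neighbouring exons, with 52.6 and 39.4 in the first and 64.0 and 26.0 in the second. Its promoter region had a pooled signal of 429, against 105 and 93.0 in the exons. mef-2 had 2 regions in its 3' UTR 544 bp apart, the stronger with the values above and the other with 49.0 and 32.1. ham-1, for a winged-helix protein of asymmetric neuroblast division, had 57.1 and 33.4, and 45.6 and 29.8. None of the genes named here with several regions had one in both own lists, where only 9 of all 211 exonic regions (4.27%) were.

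Among 19 gene lists, chromatin regulators and collagens had the most exonic regions. Beside the 0.981% of all genes with an exonic region stand 6 of 124 chromatin regulators (4.84%). Per megabase of eligible exonic sequence this list had 29.2 regions, against 9.20 over all genes. set-16, for an MLL-type histone H3 lysine 4 methyltransferase, had 61.2 in replicate 1 and 33.5 in replicate 2. nurf-1, for the large subunit of the NURF remodeller, had 51.4 and 49.8 at the stronger of its 2 regions. The others were cbp-1, swsn-1 of the SWI/SNF complex, the demethylase gene jmjd-2 and the helicase gene chd-7. Their median pooled signal was 87.6, against 79.6 over the exonic regions.

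Collagens had 8 of 179 genes (4.47%), or 49.7 regions per megabase, and 5 collagen genes had a region in the promoter. let-2, for a type IV collagen of basement membranes, had 63.5 in replicate 1 and 28.3 in replicate 2, and exons covered 42.2% of that region. The other 7 were cuticle collagen genes, among them col-95 with 55.3 and 42.1 and col-105 with 54.7 and 27.6. The windows of those 7 had 60.7 to 71.1% GC. Collagen repeats are rich in glycine and proline, whose codons start with a pair of G or C. Whether this accounts for the GC content of these windows was not tested. The windows of col-95, col-65 and col-17 share 31-mers with other places in the genome (15.8, 8.77 and 57.3% of their 31-mers), so reads there may come from more than 1 gene. None of the 8 was in both own lists, where only 4.27% of all exonic regions were.

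Splicing genes had 4 of 77 (5.19%), with rsp-1 and rsp-3 for SR proteins, asd-2 for a STAR-domain splicing factor and uaf-1 for the large U2AF subunit. rsp-1 had 38.7 in replicate 1 and 39.4 in replicate 2, asd-2 had 37.1 and 42.5, and rsp-3 had 45.8 and 36.6 in its coding region. Chaperones had 3 of 86 (3.49%), namely hsp-1 for HSC70 (41.0 and 32.9), enpl-1 for GRP94 (36.9 and 35.7) and crt-1 for calreticulin, a lectin chaperone of the endoplasmic reticulum (39.3 and 30.8 at the second of 2 regions). Their median pooled signal of 64.0 was low among the members. The small RNA pathway had 3 of 69 (4.35%): rde-12, the microRNA Argonaute gene alg-1 (56.5 and 31.9, in its 5' UTR) and sid-3 for a tyrosine kinase of double-stranded RNA import (40.6 and 46.9). Per megabase of eligible exonic sequence, splicing genes had 46.6 regions, chaperones 44.0 and the small RNA pathway 19.0, against 9.20 over all genes.

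Extracellular matrix and adhesion genes had 2 of 48 (4.17%), the cadherin gene hmr-1 (50.3 and 30.7) and let-805 for myotactin (53.0 and 26.8). Cell cycle genes had 2 of 116 (1.72%), cdc-25.2 and the cyclin A gene cya-1 (46.4 and 27.5). Mitochondrial genes had 2 of 175 (1.14%), icl-1 of the glyoxylate cycle (40.4 and 37.2) and mrps-30 of the mitochondrial ribosome, with 45.7 in replicate 1. The cytoskeleton had 1 of 70, the spectraplakin gene vab-10 (45.7 and 36.3). Homeobox genes had 1 of 89, the LIM homeobox gene ceh-14 (40.2 and 40.1, in its 3' UTR), and nuclear hormone receptors 1 of 269, nhr-66 (46.8 and 27.6). A share of genes does not allow for gene length. Per megabase of eligible exonic sequence, the matrix list had 7.63 regions and the cell cycle list 9.17, against 9.20 over all genes. Mitochondrial genes had 18.0, the cytoskeleton 3.88, homeobox genes 9.62 and nuclear hormone receptors 3.18.

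Chemoreceptors, the largest list, had 1 of 1365 (0.0733%), srd-70, with 36.0 in replicate 1 and 41.8 in replicate 2. Per megabase that was 0.965 regions, against 9.20 over all genes. No exonic region was found in the 78 cytosolic ribosomal protein genes, 74 histone genes, 63 genes of translation factors and tRNA synthetases, 58 muscle genes, 59 maternal RNA-binding genes, 503 genes of the ubiquitin system or 6 vitellogenin genes. For 4 of these lists this says little, because little eligible exon is left: 0.0139 megabases for ribosomal protein genes, 0.00210 for histone genes, 0.0287 for vitellogenin genes and 0.0843 for translation factors and tRNA synthetases. Room was also limited for maternal RNA-binding genes, with 0.127 megabases, and muscle genes, with 0.249, at 9.20 regions per megabase over all genes. A region in the promoter was found at 41 of the ribosomal protein genes and 32 of the histone genes. The ubiquitin list has 0.481 megabases and 30 genes with a promoter region.

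The weakest members were in T09B4.5, hmr-1 and F13D12.8, with pooled signals of 39.6, 46.2 and 46.6. T09B4.5 had 36.4 in replicate 1 and 37.9 in replicate 2, and F13D12.8 had 43.5 in replicate 1 and no overlapping peak in replicate 2. Their pooled signals are near their replicate signals, whereas the median ratio of the pooled signal to the higher replicate was 1.66 over the 211 members.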

How the data were processed

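The authors deposited peak lists in ce11 coordinates, per the labels, made from filtered alignments and a control file. For the aligner, the peak caller, the IDR version and the read depth, nothing is stated: they are not given in the sources used. The thresholded lists had 1 further input that is not described. The deposited signal is the peak caller's value per peak, on an unstated scale. The deposited ranked list gives -log10 of the global IDR, and its minimum of 2.00 in the conservative list corresponds to an IDR threshold of 0.01.

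The 2633 conservative peaks merged into 2538 regions, 2520 of them nuclear. Replicate signals are those of the nearest overlapping peak in the replicate's own ranked list, and own lists were compared at an overlap of at least 1 bp. Gene models were Ensembl release 115. Coordinates are 1-based. Regions are not replicates of a condition, so shares have 95% Wilson intervals that cover counting error only, and no tests were run. A total of 20 members by mean log2 signal, UTR and list leaders, genes with several members and members at the limits were named by rule. Members and gene lists were chosen with earlier results of these data known. Merging and classification were tested on simulated data. Tools were SciPy 1.17.1, pandas 2.3.3, NumPy 2.4.6 and, for plots, matplotlib 3.10.9 in Python 3.11.15.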

Additional observations from a re-analysis of the deposited data

How the results depend on the processing

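The median GC content stayed within 1 SD of the replicates' own lists under all 9 alternatives, from 46.3% to 49.8%. That SD, 2.46 percentage points, comes from the medians of the 2 own lists, which are also 2 of the 9 alternatives. With 31 and 60 exonic regions in those lists, it is a wide measure and says little about stability. The ratio of median signal stayed below 1 under all 17 alternatives, but its replicate SD is so small that 16 values lie outside it. Leaving out a replicate means using the own list of the other. Without replicate 1 and without replicate 2, the number of exonic regions was 31 and 60, their share 2.80% and 4.04% and the ratio 0.690 and 0.788. An IDR of at most 0.0001 left 3 exonic regions, a share of 0.794%, a ratio of 0.905 and 100% of them in both own lists. The other thresholded list gave a share of 9.56% and a ratio of 0.798. A promoter of 500 bp upstream to 100 bp downstream gave 9.96% and 0.789, one of 2000 bp upstream to 200 bp downstream 7.30% and 0.784, and every protein-coding transcript start 7.14% and 0.785. Windows with no repeated 31-mer, an alternative chosen after seeing the data, gave 11.1% and 0.827. The ratio was 0.897 against intronic and intergenic regions, 0.785 in replicate 1 signal, 0.791 with no merging, 0.784 at midpoints, 0.782 with a small RNA margin of 50 or 500 bp, 0.786 with at least 50% of the region in exons and, chosen after seeing the data, 0.780 for coding members only. The share in both own lists ranged from 2.78% to 5.58% under the other alternatives. The causes of these shifts were not tested. No paired analysis was possible because there is 1 group. Depth is unknown, the signal scale is unstated, no input profile was used, and 2 replicates of 1 strain give the only spread. A missing peak in an own list does not show that binding is absent.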
